A study of Oryza sativa Japonica Group with 4 samples.

Results

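The regions described here lie at the start of rice chromosomes 11 and 12, and were chosen by position alone, as those with a midpoint in the first 3 Mb of either chromosome. They number 563 of the 29736 regions listed for 2 marks on 12 chromosomes, or 1.89%. Chromosome 11 holds 275 of them (118 Kcr and 157 H3K14cr) and chromosome 12 holds 288 (134 Kcr and 154 H3K14cr). The material was seedlings of the japonica cultivar Nipponbare, mainly leaf with a little stem, at an age of 2 weeks and after germination for 72 h. No treatment or mutant is named in the labels. Chromatin was precipitated with a pan antibody against crotonylated lysine (Kcr) or with an antibody against crotonylation at lysine 14 of histone H3 (H3K14cr), with 2 biological replicates for each antibody.

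Crotonylation is a short-chain acylation of lysine related to acetylation, and on histones it is found mainly at the starts of active genes. The beginnings of chromosomes 11 and 12 are copies of each other that arose from a segmental duplication, and gene conversion between them has kept many of their genes alike. That makes a pair of related stretches of chromatin that can be compared in the same nuclei. Sequence that the copies still share can also attract the same short reads, and the sources used here do not state how reads matching both places were assigned. Numbers of regions in stretches of near-identical sequence are therefore uncertain.

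One list of regions per mark served both libraries of that mark, so there is no value per library and no spread between replicates. The depth behind a region is unknown. Each interval and p-value below covers the counting of regions only, with regions taken as independent, and says nothing of variation between plants. The assembly of the lists is not named, so genes and sequences under the regions were not analysed here, and positions are printed as deposited.

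The number of regions differed between the copies by less than the counting error. Kcr had 39.3 regions per Mb on chromosome 11 and 44.7 on chromosome 12, a ratio of 0.881 (exact interval 0.682 to 1.14; exact binomial test, two-sided p = 0.345). H3K14cr had 52.3 and 51.3 regions per Mb, a ratio of 1.02 (0.811 to 1.28; exact binomial test, two-sided p = 0.91). Neither difference passed the test, and the intervals leave room for differences of the size of their bounds. Covered bases gave the same order for Kcr, with 4.68% of the chromosome 11 block and 5.55% of the chromosome 12 block. H3K14cr covered 8.43% and 8.61%.

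The marks were not spread evenly within the blocks. The first, the second and the third megabase of chromosome 11 held 47, 43 and 28 Kcr regions. On chromosome 12 the same windows held 51, 50 and 33. Kcr was thus dense over the first 2 Mb of each copy and sparser in the third megabase. H3K14cr had 51, 58 and 48 regions on chromosome 11 and 52, 64 and 38 on chromosome 12, with the most in the second megabase of both copies. In the following 3 windows Kcr had 36, 28 and 36 regions on chromosome 11 and 41, 24 and 27 on chromosome 12. There H3K14cr had 41, 55 and 63 regions on chromosome 11 and 53, 50 and 42 on chromosome 12. On chromosome 11 the last of these windows thus held more H3K14cr regions than the second megabase.

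**Figure D1:**
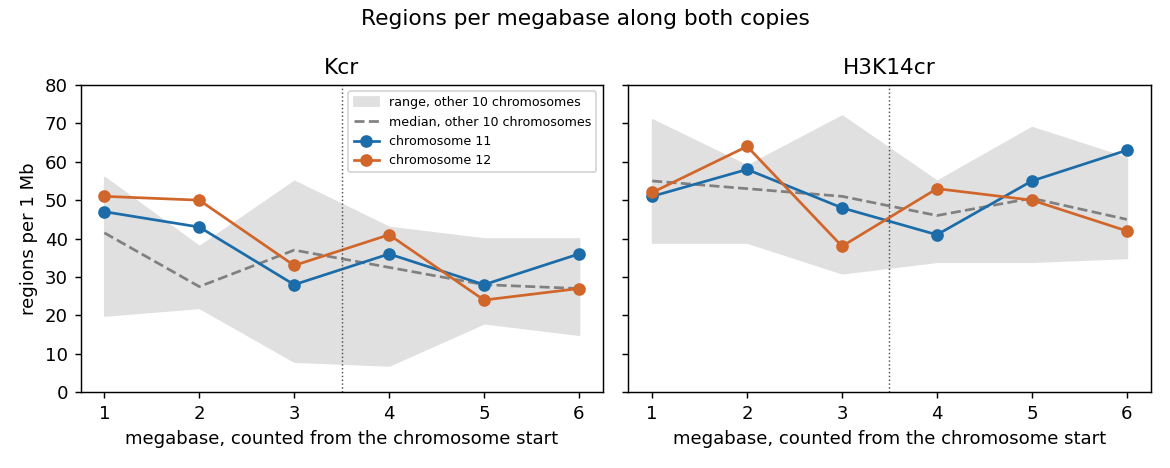
Regions per 1 Mb (vertical axis) in each of the first 6 megabases from the chromosome start (horizontal axis) for Kcr and H3K14cr; lines with points are chromosomes 11 and 12, the grey band and dashed line are the range and median of the other 10 chromosomes, and the dotted line marks 3 Mb. In the second megabase both copies, with 43 and 50 Kcr regions, lie above the band, which ends at 38.

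In the second megabase, a window singled out after its values were seen, the 43 and 50 Kcr regions were more than the 22 to 38 (median 27.5) of the other 10 chromosomes, whereas the 28 and 33 of the third megabase lay under their median of 37. Over the first 2 Mb the copies held 90 and 101 Kcr regions, the second highest and the highest number of the 12 chromosomes, and the others held 46 to 83. The pooled density of both copies over the first 2 Mb was 1.38 times that of the other 10 starts together (1.17 to 1.62; exact binomial test, two-sided p = 0.000119, adjusted p = 0.00107 over 9 comparisons). These 2 Mb include the second megabase, singled out for its values, so this p-value is no separate support for the excess there. Tests against the other starts, here and below, pool them and do not cover the spread between them. Other settings gave a smaller excess of Kcr. It was 1.19 in the first 1 Mb (adjusted p = 0.275 by the exact binomial test), where the other 10 chromosomes held 20 to 56 regions and the copies 47 and 51. Over 3 Mb it was 1.03 in the wider 50% of the list (adjusted p = 0.89 by the exact binomial test) and 1.08 by covered bases. H3K14cr over the first 2 Mb was 1.09 times the density of the other starts (0.939 to 1.26; adjusted p = 0.377 by the exact binomial test).

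Over the whole 3 Mb the excess of Kcr was smaller and did not pass the test. The 252 Kcr regions of both copies, against 1035 at the other 10 starts, gave a ratio of 1.22 (1.06 to 1.40; exact binomial test, two-sided p = 0.00629, adjusted p = 0.0566 over 9 comparisons). Chromosome 12, with 134 regions, ranked highest of the 12 starts and chromosome 11, with 118, ranked the fifth, in a range of 71 to 130 for the others. With another start left out in turn the ratio stayed between 1.18 and 1.253, and the adjusted p ranged from 0.018 to 0.21. Among 117 blocks of 3 Mb tiled over the genome, whose median was 85 Kcr regions, the start of chromosome 12 ranked the third and that of chromosome 11 the eleventh (rank 11). For H3K14cr the ranks were 46 and 47, near the middle.

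Against the next 3 Mb of the same chromosome, Kcr was denser in each copy, without passing the test after adjustment. Chromosome 11 had 118 regions in the first and 100 in the next 3 Mb, a ratio of 1.18 (0.896 to 1.56; exact binomial test, two-sided p = 0.25, adjusted p = 0.624 over 15 comparisons). Chromosome 12 had 134 and 92, a ratio of 1.46 (1.11 to 1.92; exact binomial test, two-sided p = 0.00626, adjusted p = 0.0939). The ratios of the copies did not differ by the test of their difference (Fisher's exact test, two-sided p = 0.293). H3K14cr had 157 and 159 regions on chromosome 11 and 154 and 145 on chromosome 12, with ratios of 0.987 (0.787 to 1.24) and 1.06 (0.841 to 1.34). For Kcr the other 10 chromosomes had ratios of first to next 3 Mb of 0.954 to 1.78 (median 1.18).

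**Figure D2:**
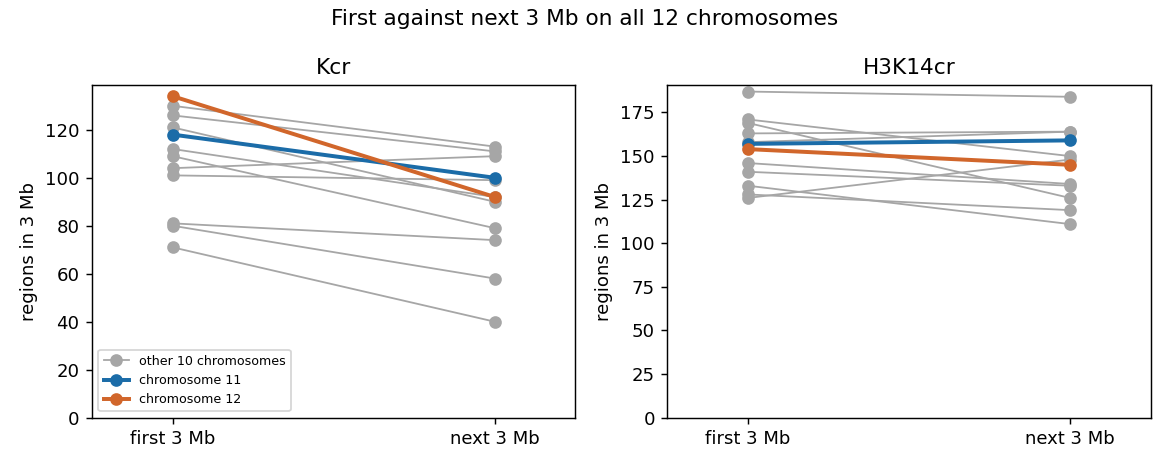
Number of regions (vertical axis) in the first and the next 3 Mb of each of the 12 chromosomes for Kcr and H3K14cr, 1 line per chromosome, with chromosomes 11 and 12 in colour. Kcr goes from 118 to 100 on chromosome 11 and from 134 to 92 on chromosome 12, while the H3K14cr lines of both copies stay nearly level.

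Both copies began with a site carrying both marks at the very tip. On chromosome 11 a Kcr region at 1935 to 3092 lay within an H3K14cr region at 1132 to 3103, followed by a Kcr region at 3277 to 5045 with H3K14cr at 3361 to 5010. On chromosome 12 a single Kcr region at 1491 to 3464 overlapped H3K14cr at 1225 to 3416. These are the regions closest to the chromosome start in each list. On the other 10 chromosomes the first Kcr region began at 2626 to 144850 and the first H3K14cr region at 2745 to 46074.

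Behind the tip, both copies had a long stretch without H3K14cr. It ran from 5010 to 116248 on chromosome 11, over 111238 bp, and from 3416 to 112146 on chromosome 12, over 108730 bp. The difference in length, chromosome 12 minus 11, was -2508 bp. Gaps between H3K14cr regions longer than 100 kb are rare, with 173 among 18801 gaps of the whole list, or 0.92%. The stretch on chromosome 11 held 2 Kcr regions, at 79027 to 79675 and 109954 to 110797, and the one on chromosome 12 held none. For Kcr the empty stretch was 73982 bp on chromosome 11 and 115840 bp on chromosome 12.

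Each copy had further long stretches without H3K14cr. The second ran from 423035 to 530906 on chromosome 11 (107871 bp) and from 517193 to 632279 on chromosome 12 (115086 bp). Its borders were thus displaced by 94.2 kb and 101 kb between the copies. The third ran from 2218774 to 2287497 on chromosome 11 (68723 bp) and from 2228723 to 2335554 on chromosome 12 (106831 bp), with borders displaced by 9.95 kb and 48.1 kb. They are the 3 longest H3K14cr gaps of each copy, paired here by their order along the chromosome after their values were seen. Whether they belong together was not tested on sequence, and gaps of other pairs of starts were not compared in this way. On chromosome 11 the third is little longer than the next one, from 1167687 to 1234164 (66477 bp). In total 5 gaps over 100 kb fell in the copies, 2 on chromosome 11 and 3 on chromosome 12, against 0 to 3 (median 1) at each other start.

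The second stretch held Kcr without H3K14cr in both copies. On chromosome 11 there were 3 Kcr regions, which began at 438713, 447155 and 480043 and were 941, 1123 and 1584 bp wide. On chromosome 12 there were 2, which began at 539394 and 557455 and were 1291 and 1496 bp wide. At the left border the copies differed. On chromosome 11 an H3K14cr region of 2631 bp (420404 to 423035) had no overlapping Kcr, and the nearest Kcr before the stretch lay at 410159 to 411529. On chromosome 12 H3K14cr of 1991 bp (515202 to 517193) and Kcr of 1743 bp (515289 to 517032) overlapped. At the right border both marks were present in both copies, with close widths. H3K14cr was 941 bp wide there on chromosome 11 (530906 to 531847) and 931 bp on chromosome 12 (632279 to 633210). Kcr was 1075 bp wide (530885 to 531960) and 1076 bp wide (632069 to 633145). These flanking sites were chosen after their values were seen. The third stretch held 3 Kcr regions on chromosome 11 and 1 on chromosome 12.

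The longest Kcr gap lay behind the tip on chromosome 12 only. On chromosome 11 the longest ran from 2523087 to 2627124 (104037 bp), with 3 H3K14cr regions inside it. On chromosome 12 the next longest, from 1818407 to 1933925 (115518 bp), held 6 H3K14cr regions. On chromosome 11 the second longest, from 2628192 to 2729786 (101594 bp), held 4. The third there, from 1895676 to 1995008 (99332 bp), held 5. Kcr gaps over 100 kb numbered 2 in each copy, against 0 to 9 (median 4) at the other starts, and make up 5.86% of all Kcr gaps.

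Most Kcr regions of the copies overlapped H3K14cr by at least 1 bp. On chromosome 11 this held for 74 of 118, or 62.7% (95% Wilson interval 53.7 to 70.9%), and on chromosome 12 for 73 of 134, or 54.5% (46.04 to 62.7%), where the whole Kcr list has 63.9%. The difference between the copies was 8.23 percentage points (-3.93 to 19.998; Fisher's exact test, two-sided p = 0.202). It was 13.9 points with 50% reciprocal overlap and -9.59 points in the wider 50% of each list (Fisher's exact test, adjusted p = 0.159 and 0.523). Both copies together, at 58.3%, differed from the other 10 starts, at 62.1%, by -3.79 points (-10.6 to 2.84; Fisher's exact test, p = 0.28). In the wider 50% of each list the latter difference was -17.8 points, past the threshold, and in the first 1 Mb 1.46 points (Fisher's exact test, adjusted p = 0.00512 and 0.885). Between the first and the next 3 Mb the Kcr share differed by less than the counting error, at 62.7% and 60% on chromosome 11 (difference 2.71 points, -10.1 to 15.5) and at 54.5% and 54.3% on chromosome 12 (0.13 points, -12.8 to 13.2).

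H3K14cr regions of the copies overlapped Kcr in 75 of 157 cases on chromosome 11, or 47.8% (40.1 to 55.5%), and in 72 of 154 on chromosome 12, or 46.8% (39.05 to 54.6%). In the whole H3K14cr list the share is 37.1%. The copies differed by 1.02 percentage points (-9.96 to 11.96; Fisher's exact test, p = 0.91). In the next 3 Mb the shares were 37.1% and 34.5%, lower by 10.7 points on chromosome 11 (-0.223 to 21.2; Fisher's exact test, adjusted p = 0.29 over 15 comparisons) and by 12.3 points on chromosome 12 (1.13 to 22.96; adjusted p = 0.258). Neither passed the test. The share was highest at the outermost megabase of both copies, with 60.8% on chromosome 11 and 61.5% on chromosome 12. It was 50% and 39.1% in the second and 31.3% and 39.5% in the third megabase. Over the first 2 Mb the copies exceeded the other starts by 10.4 points (3.20 to 17.5; Fisher's exact test, adjusted p = 0.0216 over 9 comparisons), and over 3 Mb by 5.09 points (-0.938 to 11.2; adjusted p = 0.308). The first 2 Mb include the megabase singled out for its Kcr numbers, and Kcr density there was 1.38 times that of the other starts. The H3K14cr share was not adjusted for this, so its p-value is no separate support. The Kcr share over the same 2 Mb differed by -1.64 points (Fisher's exact test, adjusted p = 0.868). In the first 1 Mb the excess in the H3K14cr share was 13.4 points (Fisher's exact test, adjusted p = 0.121). In the wider 50% of each list, over 3 Mb, the difference was -7.66 points (Fisher's exact test, adjusted p = 0.155). Single other starts ranged from 34.6% to 50% over 3 Mb, and chromosomes 11 and 12 ranked 3 and 5 of 12 from the highest.

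Seen as the balance of the marks, Kcr supplied 42.9% (37.2 to 48.8%) of all regions on chromosome 11 and 46.5% (40.9 to 52.3%) on chromosome 12. The difference was -3.62 points (-11.7 to 4.57; Fisher's exact test, p = 0.398). The share on chromosome 12 was the highest of the 12 starts, of which the others ranged from 34.8% to 45.2%. In the next 3 Mb Kcr supplied 38.6% and 38.8%, and these differences from the first 3 Mb did not pass Fisher's exact test either (adjusted p = 0.646 and 0.29 over 15 comparisons).

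**Figure D3:**
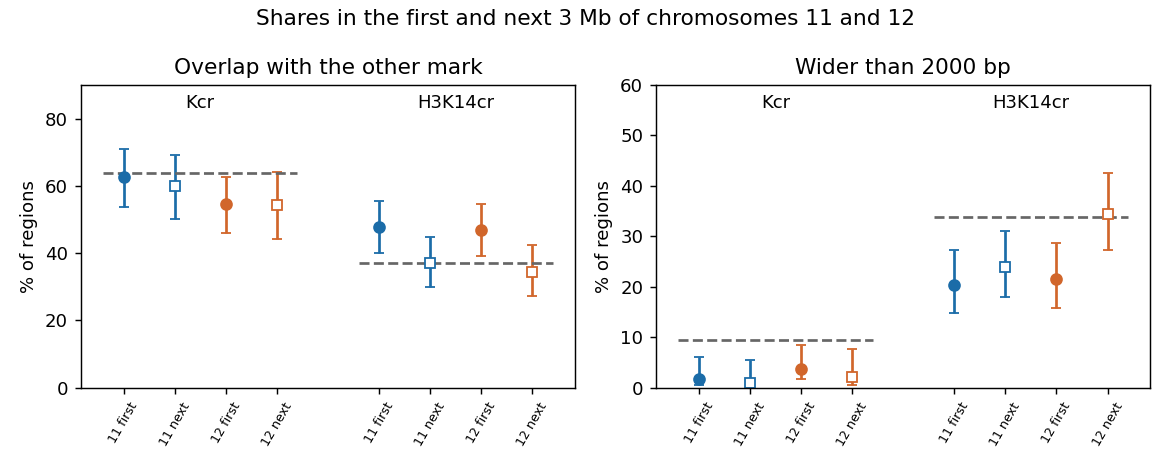
Percentage of regions (vertical axis) that overlap the other mark (left) or are wider than 2000 bp (right) in the first (filled) and next (open) 3 Mb of chromosomes 11 and 12, for each mark; bars are 95% Wilson intervals and dashed lines are the whole lists. For H3K14cr, both filled points lie at 47.8% and 46.8% for overlap, over the line at 37.1%, and at 20.4% and 21.4% for width, under the line at 33.8%.

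The borders of overlapping Kcr and H3K14cr regions were compared next. Chromosome 11 had 75 such pairs and chromosome 12 had 73. Both edges agreed within 100 bp in 17 pairs on chromosome 11, or 22.7% (14.7 to 33.3%), and in 25 on chromosome 12, or 34.2% (24.4 to 45.7%), against 24.9% of all pairs in the genome. Between the nearer edges the median distance was 48 bp on chromosome 11 and 45 bp on chromosome 12, with 51 bp in the whole genome. Between the farther edges it was 191 bp and 171 bp, with 208 bp in the whole genome. On chromosome 11 an H3K14cr region lay wholly inside its Kcr partner in 18 pairs (24%), and on chromosome 12 in 8 pairs (10.96%). The converse, Kcr inside H3K14cr, was found in 20 (26.7%) and 26 pairs (35.6%). Over all pairs of the genome the shares are 15.04% for H3K14cr inside Kcr and 39.6% for Kcr inside H3K14cr. These numbers were not tested between the copies.

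Regions carrying a single mark were measured by their distance to the other mark. The 44 Kcr regions alone on chromosome 11 lay a median of 6222.5 bp from the nearest H3K14cr region, and the 61 on chromosome 12 a median of 4815 bp. A distance of at most 1000 bp was found for 0 of those on chromosome 11 and for 8 (13.1%) on chromosome 12, against 10.3% of lone Kcr regions in the whole list. In the next 3 Mb it was found for 5 of 40 and 7 of 42. Each copy had 82 H3K14cr regions without Kcr. Their median distance to Kcr was 7266.5 bp on chromosome 11 and 6875 bp on chromosome 12, against 9869 bp and 8737 bp in the next 3 Mb and 11141 bp in the whole list. Neither these distances nor the shares of overlap were adjusted for the number of Kcr regions. That number was 118 and 134 in the first 3 Mb and 100 and 92 in the next 3 Mb. For Kcr alone the whole list has a median of 5436.5 bp.

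Median widths differed between the copies by less than their intervals. The median Kcr width was 1154 bp on chromosome 11 (quartiles 992.75 and 1311.75 bp; binomial interval of the median 1084 to 1211 bp). On chromosome 12 it was 1155.5 bp (quartiles 994.25 and 1380.5 bp; 1119 to 1231 bp). For H3K14cr the medians were 1401 bp (1251 to 1580 bp) and 1461 bp (1320 to 1578 bp). In the next 3 Mb the Kcr medians were 1089.5 bp and 1129.5 bp, and those of H3K14cr 1550 bp and 1445 bp. The differences between first and next 3 Mb also lay within the intervals of the medians.

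**Figure D4:**
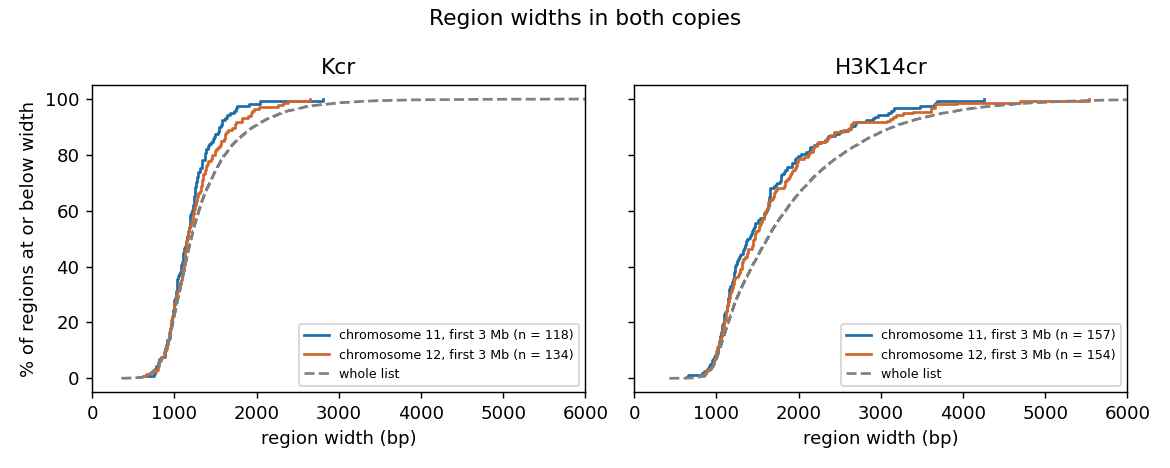
Cumulative percentage of regions (vertical axis) at or below a given width in bp (horizontal axis) for Kcr and H3K14cr in the first 3 Mb of chromosomes 11 and 12, with the whole list dashed. The curves of both copies run together and, for H3K14cr, left of the whole list, with medians of 1401 and 1461 bp.

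Wide regions were scarce in both copies. Kcr regions wider than 2000 bp numbered 2 on chromosome 11 (1.69%) and 5 on chromosome 12 (3.73%), where the whole list has 9.41%. H3K14cr regions of this width numbered 32 (20.4%) and 33 (21.4%), where the whole list has 33.8%. The copies did not differ from each other beyond counting error in either mark (differences of -2.04 and -1.05 points; Fisher's exact test, p = 0.453 and 0.889). Both copies pooled had fewer wide regions than the other 10 starts, by 8.43 percentage points for Kcr (2.78% against 11.2%; difference -8.43, -10.9 to -5.07; Fisher's exact test, adjusted p = 7.44e-05 over 10 comparisons). For H3K14cr the shares were 20.9% and 33.2% (difference -12.3, -17.1 to -6.89; Fisher's exact test, adjusted p = 7.81e-05). The direction was the same in both copies and held with each other start left out in turn. Single starts still went as low, since the other 10 ranged from 0.99% to 23.8% for Kcr and from 17.2% to 42.2% for H3K14cr. Of the 12 starts, counted from the highest, chromosomes 11 and 12 ranked 11 and 9 for Kcr and 11 and 10 for H3K14cr. The test pools the other starts and does not cover the spread between them.

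The rest of chromosomes 11 and 12 was looked at in the same way. Beyond the first 3 Mb, wide Kcr regions made up 4.58% on chromosome 11 and 4.94% on chromosome 12, against 7.03 to 12.8% on the other chromosomes. The starts, at 2.78%, did not differ from the rest of their chromosomes, at 4.75%, beyond counting error (difference -1.97, -3.95 to 1.07; Fisher's exact test, p = 0.234). Wide H3K14cr regions made up 32.0% and 31.7% beyond the first 3 Mb, within the 30.1 to 39.2% of the other chromosomes. Here the starts had fewer than the rest, with 20.9% against 31.9% (difference -10.96, -15.5 to -5.74; Fisher's exact test, adjusted p = 0.000199). Whether the marks differ in this step was not tested. Against the next 3 Mb alone, wide Kcr regions were not fewer at the starts, with 1.69% against 1% on chromosome 11 and 3.73% against 2.17% on chromosome 12. These differences, of 0.695 points (-3.92 to 5.05) and 1.56 points (-4.26 to 6.52), did not pass Fisher's exact test. Wide H3K14cr regions were fewer at the start of chromosome 12 (21.4% against 34.5%; adjusted p = 0.0351 by Fisher's exact test), a difference that turned to 5.89 points in the other direction when the first 1 Mb was set against the following 1 Mb. On chromosome 11 the shares were 20.4% and 23.9% (Fisher's exact test, adjusted p = 0.713).

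The widest members lay at different places in the copies. On chromosome 11 the widest Kcr region, at 778009 to 780816, was 2807 bp wide and was shared with an H3K14cr region of 2361 bp. The next, found at 262486 to 264528, measured 2042 bp and spanned 2 H3K14cr regions. The third, from 1279788 to 1281695, was 1907 bp wide. On chromosome 12 the widest Kcr region, at 1095825 to 1098478 (2653 bp), had an H3K14cr partner of 2631 bp. It was followed by 1043203 to 1045585 (2382 bp), with Kcr alone, and by 2226421 to 2228744 (2323 bp), which borders the third long stretch without H3K14cr.

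The 3 widest H3K14cr regions of chromosome 11 carried no Kcr and lay within 81.5 kb of each other, close to the inner limit of the block. The widest ran from 2949869 to 2954121 and measured 4252 bp. Another, of 3678 bp, ran from 2906934 to 2910612, and the last, of 3666 bp, from 2984788 to 2988454. On chromosome 12 the widest was at 2092583 to 2098112 (5529 bp) and spanned 2 Kcr regions. The others, at 275783 to 280471 (4688 bp) and 1764926 to 1768854 (3928 bp), had none. At the limit of 3 Mb the last Kcr region counted on chromosome 11 was 2978226 to 2978992, and the first left out was 3020298 to 3021385. On chromosome 12 these were 2950750 to 2951766 and 3023638 to 3024870. For H3K14cr the last regions counted were 2984788 to 2988454 and 2950527 to 2951739, and the first left out were 3020375 to 3022287 and 3023555 to 3024859.

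The order of the regions was compared through their spacing, since sequence was not at hand. A collinear chain was a run of regions of 1 mark in which the distance between successive midpoints differed by at most 200 bp between the copies, with at most 1 region skipped in each copy. The longest chain held 3 regions for Kcr and 3 for H3K14cr, and no chain reached 5. The other 65 pairs of chromosome starts had longest chains of 2 to 5 Kcr regions and of 3 to 5 H3K14cr regions, with medians of 3. By this measure the duplicated starts did not stand out, and the next 3 Mb gave 3 and 4 regions. The Kcr chain joined 2140274, 2206818 and 2213595 on chromosome 11 to 2610918, 2677710 and 2684632 on chromosome 12 (region starts). The H3K14cr chain joined 1133502, 1142913 and 1166265 to 1000556, 1010328 and 1033402. The first links of these chains were displaced between the copies (chromosome 12 minus 11) by 470802 bp for Kcr and by -132798 bp for H3K14cr. The marks thus did not share a displacement. That of the Kcr chain also differed from the 9.95 kb and 48.1 kb of the third H3K14cr gap pair, which lies close to this chain on chromosome 11. Whether the chains or the gap pair join related sequence was not tested.

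Single equal distances between regions were counted as well. This measure was chosen after the chains and several other ways of scoring order had been tried. Most of these did not set chromosomes 11 and 12 apart. Of 1646 pairs of a chromosome 11 and a chromosome 12 Kcr region lying at most 150 kb apart in distance from the chromosome start, 44 followed a pair with the same spacing within 200 bp, or 26.7 per 1000. The other 65 pairs of starts gave 8.69 to 36.5 (median 21.5), and 10 of them were as high or higher. For H3K14cr it was 80 of 2471, or 32.4 per 1000, against 18.6 to 34.9 (median 27.2), again with 10 as high or higher. With a tolerance of 500 bp the values were 72.3 for Kcr and 85.4 for H3K14cr per 1000. Then 1 other pair was as high or higher for Kcr and 0 for H3K14cr. The highest other pair for H3K14cr, chromosomes 1 and 5, gave 85.3. With up to 2 regions skipped, at 500 bp, 0 other pairs were as high for Kcr and 4 for H3K14cr. In the next 3 Mb, at 500 bp, 6 and 39 other pairs were as high or higher. The starts of chromosomes 1, 2 and 3 held 121, 126 and 130 Kcr regions. The pairs among them gave 49.2 to 62.8 for Kcr and 78.4 to 82.9 for H3K14cr at 500 bp. These starts do not match the copies in Kcr density along the block. Over the first 2 Mb the copies held 90 and 101 Kcr regions, and the other starts at most 83. The rates were not adjusted for the density of regions, and its part in them was not tested. When displacements of up to 500 kb were allowed, at 200 bp, Kcr reached 27.04 per 1000 in the first and 24.8 in the next 3 Mb, and in both 0 of the other pairs were as high. H3K14cr then had 28.02 in the first 3 Mb, with 26 other pairs as high or higher. A high Kcr rate was thus also found outside the first 3 Mb, and these values are a description.

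**Figure D5:**
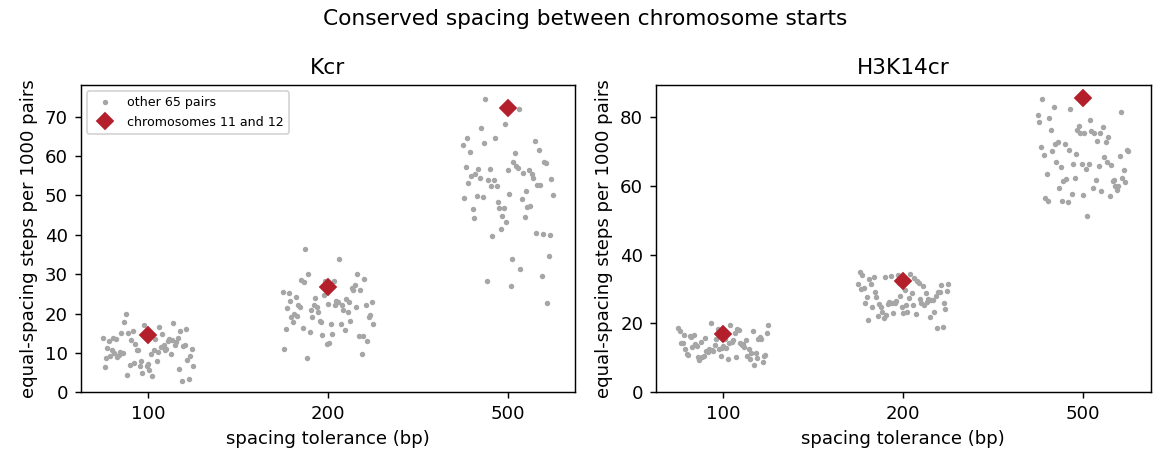
Equal-spacing steps per 1000 region pairs (vertical axis) at spacing tolerances of 100, 200 and 500 bp (horizontal axis) for Kcr and H3K14cr; grey points are the other 65 pairs of chromosome starts, spread sideways for legibility, and the diamond is chromosomes 11 and 12. At 500 bp the diamond, at 72.3 and 85.4, is at or near the top of the grey points, and at 200 bp it lies among them.

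Density at equal distance from the start was compared in bins. Over 30 bins of 100 kb Pearson's r was 0.09 for Kcr (Spearman's rho 0.14) and 0.22 for H3K14cr (rho 0.16). The other 65 pairs of starts ranged from -0.46 to 0.45 and from -0.45 to 0.36, and 31 of them for Kcr and 8 for H3K14cr were as high or higher. Bins held 1 to 8 Kcr regions on chromosome 11 and 1 to 9 on chromosome 12, and whether bins at equal distance hold matching sequence was not tested. With bins of 50 kb r was 0.13 for Kcr and 0.18 for H3K14cr, and 19 and 1 other pairs were as high or higher. With bins of 200 kb r was 0.33 and 0.30, with 18 and 6 other pairs as high or higher. The bins share the lists and their unknown depth, and these correlations are descriptions.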

How the data were processed

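Chromatin immunoprecipitation sequencing was done on rice seedlings with 2 antibodies and 2 libraries each. Bowtie was the aligner, per the submitters' processing notes. The sources used here do not give its version, the genome build, how regions were called or whether the mock precipitation was used. The deposited files hold 1 list per mark, named for both replicates per the labels, with chromosome, start and end and no other unit or score. Whether reads were pooled is not given.

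No region was filtered out. Density was counted from midpoints, and width is end minus start. Exact binomial and Fisher's exact tests (SciPy 1.17.1, Python 3.11.15) were two-sided, with Wilson intervals for shares and intervals of differences built from them. Benjamini-Hochberg adjustment was done in 3 families: 15 planned comparisons, 9 added ones on density and sharing, and 10 added ones on widths. This split was chosen after pooled results were known. Pooled over all 34, the adjusted p of Kcr density (chromosome 12 first against next, and both copies against the other starts) would be 0.0427, and over the 24 without widths 0.0754. The added comparisons, the gap pairs and the spacing steps were chosen after values were seen. The members and lists were chosen with earlier results of these data known. Regions named by rule are the 3 widest, the longest gaps, those at the 3 Mb limit and the longest chain. Chain finding was checked on simulated copies with a uniform shift, and the density test on simulated independent counts. Neither check covers displacements that change along the block or starts of uneven density. Alternatives were block length, merging, wider regions, overlap, edges, tolerance and bin size.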

Additional observations from a re-analysis of the deposited data

How the results depend on the processing

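No paired analysis was possible because the files give a single list of regions per antibody; leaving out a replicate was not run for that reason. Of 360 alternatives run on 48 results, 318 kept the direction and side of the threshold or, for values with no test, stayed within the interval of the main value or the spread of the other pairs, and counts within 1.5 times. The others follow, and the cause was not tested. Leaving out other starts and the settings for spacing steps were chosen after seeing the data.

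Calls changed as follows. With the first 2 Mb, Kcr density over the other starts was 1.38, H3K14cr sharing exceeded them by 10.4 points, and wide H3K14cr regions, first minus next, were -16.6 points on chromosome 11 (now past the threshold) and -9.84 on chromosome 12 (no longer past it); with the first 1 Mb the latter was 5.89, the reverse sign. In the wider 50% of each list, Kcr sharing against the other starts was -17.8 points (past the threshold). Kcr density over the other starts passed the threshold without chromosome 1 (1.24), 2 (1.248), 3 (1.253), 5 (1.22) or 6 (1.23).

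Further differences, none past the threshold in either setting, changed sign. With the first 2 Mb, H3K14cr density was 0.94 for chromosome 11 over 12 and 1.22 for first over next on chromosome 11. The part of regions in the first of both blocks was then 0.727 points for Kcr, chromosome 11 minus 12, and 3.17 for H3K14cr against the other starts. With the first 1 Mb, H3K14cr density was 0.981 for chromosome 11 over 12, 0.813 for first over next on chromosome 12 and 0.964 over the other starts. Sharing was then -3.61 points for Kcr, first minus next on chromosome 11, -0.754 for H3K14cr, chromosome 11 minus 12, and 1.46 for Kcr against the other starts. The part in the first block was -8.17 points for Kcr against the other starts and, chromosome 11 minus 12, 1.73 for Kcr and 1.961 for H3K14cr. Wide Kcr regions were 4.26 points for chromosome 11 minus 12 and -6 for first minus next on chromosome 12. In the wider 50%, H3K14cr density was 0.909 for first over next on chromosome 12 and 0.79 over the other starts. Sharing was -9.59 points for Kcr and -12.2 for H3K14cr, chromosome 11 minus 12, -19.0 for Kcr and -2.18 for H3K14cr, first minus next on chromosome 11, and -7.66 for H3K14cr against the other starts. With 50% of a region overlapped, Kcr sharing, first minus next on chromosome 12, was -1.36.

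Values with no test moved too. The Kcr median width, first minus next, was -33 bp on chromosome 11 and -92 bp on chromosome 12 with the first 1 Mb, and -61 bp on chromosome 11 in the wider 50%, where H3K14cr on chromosome 12 was -250 bp. By covered bases, H3K14cr over the other starts was 0.887. At 500 bp tolerance the longest H3K14cr chain had 5 regions, and 10 regions lay in chains of at least 5. With displacements of up to 500 kb, the H3K14cr ratio of equal-spacing steps to the median of the other pairs was 1.02, from 1.19. Unknown depth limits statements on regions with 1 mark, since a region missing from a list may be under its threshold.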

Other observations

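Outside the duplicated block, from 3 to 6 Mb, the marks were compared between chromosomes 11 and 12 in the same way. Over 30 bins of 100 kb at equal distance from the start, Kcr numbers had a Pearson's r of 0.36 (Spearman's rho 0.34), higher than in each of the other 65 pairs of chromosomes, which reached 0.33 at most. H3K14cr numbers in the same bins had an r of -0.30 (rho -0.21). With bins of 50 kb the values were -0.05 for Kcr and -0.08 for H3K14cr, and with bins of 200 kb 0.42 for Kcr, where 6 other pairs were as high or higher, and -0.14 for H3K14cr. The Kcr value moves with the bin size. The bins share the lists and their unknown depth, and no test was made.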
